A study of Homo sapiens with 2 samples.

Results

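The 9 genes described here are the 4 inhibitors of DNA binding (ID1, ID2, ID3 and ID4), the ligands BMP2 and BMP4, and the signalling and feedback genes SMAD6, SMAD9 and BAMBI, out of 24883 genes with a symbol in both libraries. They were chosen by name, with values from these libraries already known, so their ratios are a description of the libraries and not evidence for the choice. A gene's value took in its annotated RefSeq transcripts and those stranded transcripts assembled from the reads that shared an intron with it.

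The cells were A549, an established human lung adenocarcinoma line, a non-small cell lung cancer by the labels. Cells of 1 library carried a short hairpin RNA against PSPC1 (shPSPC1), whose product is an RNA-binding protein of paraspeckles. Cells of the other library carried a short hairpin RNA against LacZ (shLacZ), a bacterial gene with no counterpart in human cells, and both grew in serum-containing medium with antibiotics and no other stated agent. The hairpin sequences, the number of hairpins, the time after their delivery, and whether the cells were a pool or a clone are not given in the sources used here.

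Bone morphogenetic proteins (BMPs) are secreted ligands that bring together type I and type II serine-threonine kinase receptors. The activated receptors phosphorylate SMAD1, SMAD5 and SMAD9, which enter the nucleus with SMAD4 and switch on target genes, among which the ID genes are the best known. ID proteins have a helix-loop-helix but no DNA-binding part, so they bind E proteins and keep them off DNA. SMAD6 and BAMBI are themselves induced by the pathway in many cells and dampen it, SMAD6 inside the cell and BAMBI as a receptor-like protein without a kinase.

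The bases just before the start sites of the 4 ID genes are shown because these genes, which respond to the same pathway, did not all differ in the same direction between the libraries. The 250 bases before each start site were read from the RefSeq promoter table on GRCh38.p14, which matched 8 of the 9 genes. They lie at chr20:31605039-31605288 (ID1, plus strand), chr2:8681806-8682055 (ID2, plus strand), chr1:23559502-23559751 (ID3, minus strand) and chr6:19837120-19837369 (ID4, plus strand), and the start sites may differ from those in the libraries. Capitals mark the letters CCAAT, or ATTGG where they lie on the other strand.
ID1: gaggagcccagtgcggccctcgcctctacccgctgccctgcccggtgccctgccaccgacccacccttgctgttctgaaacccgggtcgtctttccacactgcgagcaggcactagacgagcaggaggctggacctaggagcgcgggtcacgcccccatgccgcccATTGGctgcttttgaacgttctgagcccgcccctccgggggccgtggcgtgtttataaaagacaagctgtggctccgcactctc
ID2: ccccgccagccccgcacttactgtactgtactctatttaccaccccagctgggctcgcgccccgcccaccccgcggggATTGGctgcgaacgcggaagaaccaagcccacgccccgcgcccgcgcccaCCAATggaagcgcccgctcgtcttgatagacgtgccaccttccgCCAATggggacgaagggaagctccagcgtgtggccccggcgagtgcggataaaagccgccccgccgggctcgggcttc
ID3: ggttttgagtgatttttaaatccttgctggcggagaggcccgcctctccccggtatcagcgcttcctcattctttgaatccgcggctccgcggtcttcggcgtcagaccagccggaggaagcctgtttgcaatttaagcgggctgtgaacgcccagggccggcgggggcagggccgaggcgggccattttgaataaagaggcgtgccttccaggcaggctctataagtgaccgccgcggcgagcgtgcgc
ID4: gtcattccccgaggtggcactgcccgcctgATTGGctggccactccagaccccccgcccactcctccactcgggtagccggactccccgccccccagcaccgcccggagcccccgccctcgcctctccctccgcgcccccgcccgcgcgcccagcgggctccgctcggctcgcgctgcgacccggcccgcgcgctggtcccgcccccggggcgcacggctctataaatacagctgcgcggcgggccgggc

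CCAAT, on either strand, begins at base -172, -122 and -78 before the ID2 start site, at -84 before ID1 and at -220 before ID4, and is not in the ID3 window. It is in 32.0% of 35116 promoter windows of the same length. TATAAA, the core of the TATA box, is in 10.7% of the windows, with overlapping matches on opposite strands at -33 and -31 before ID1 and 1 match at -29 before ID4. The E-box CANNTG, the motif of E proteins, is in 61.8% of the windows and begins at -205 before ID2 and at -21 before ID4. CAGAC, a motif bound by SMADs, is in 38.0% of the windows and begins at -147 before ID3 and at -205 before ID4. TGACG is in 21.2% of the windows and begins at -150 before ID3, where it shares bases with CAGAC. The GC-rich SMAD motif GGCGCC is in 16.4% of the windows and in none of the 4 shown. Bases further upstream were not searched, so sites beyond these windows are not covered. These matches describe letters only, and the data hold no measure of binding.

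Each library was sequenced to about 57100000 fragments (shPSPC1) and 56200000 fragments (shLacZ), estimated from the deposited intervals. PSPC1 itself was at 17.7 ± 0.858 FPKM (fragments per kilobase, relative to all fragments mapped in the library) in the shPSPC1 library and at 31.5 ± 1.25 FPKM in the shLacZ library (half-width of the 95% interval, 1 library each), a log2 ratio of -0.79. All 6 epithelial markers were at 1 FPKM or more in a library, while 0 of 6 fibroblast, 0 of 6 endothelial and 0 of 6 leukocyte markers were, with 3 leukocyte markers listed at 0 in both libraries. The summed level of the epithelial list was 2920 FPKM in the shPSPC1 library and 3708 FPKM in the shLacZ library. The fibroblast list summed to 0.895 FPKM in the shPSPC1 library and 1.03 FPKM in the shLacZ library, the endothelial list to 0.232 FPKM in the shPSPC1 library and 0.279 FPKM in the shLacZ library, and the leukocyte list to 0.0662 FPKM in the shPSPC1 library and 0.198 FPKM in the shLacZ library. The part of these differences in the results was not tested. RNA came from whole cultures, so fewer expressing cells and less RNA per cell cannot be told apart.

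Within the BMP pathway, 2 of the 9 genes were higher in the shPSPC1 library by the rule of size, ID2 and ID4, and 0 were lower. The rule asked for at least 1 FPKM in the higher library, a ratio of at least 1.5-fold after adding 1 FPKM to both values, and 95% intervals that did not overlap. Of all 11475 genes that reached 1 FPKM in a library, 4.36% were higher and 5.46% were lower by this rule. Past 2-fold, 0 of the 9 genes were higher and 0 lower, where 1.67% and 1.98% of all genes were. Intervals did not overlap between the libraries for 7 of the 9 genes, nor for 51.6% of all genes at 1 FPKM or more. Those 7 were also the only ones of the 9 to reach 1 FPKM, and their median log2 ratio was 0.35, beside 0.01 for all genes. Of the 7 ratios, 4 were above 0 and 3 below. That median is the ratio of SMAD6, which depended on the transcripts counted. It was 0.01 with annotated transcripts alone and -0.05 by fragments over the whole span, a measure described below. ID4 reached 1 FPKM in the shPSPC1 library only. With 1 library a group no test between the libraries was possible, no difference has a replicate check, and each interval holds only the error of counting and assigning fragments in 1 library.

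**Figure D1:**
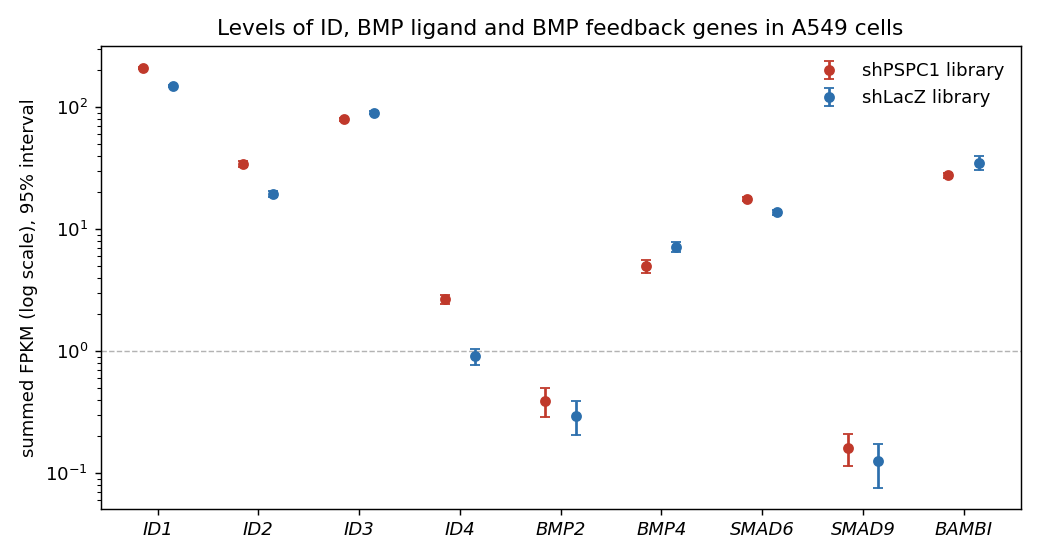
Level of each gene in FPKM on a log axis, with the shPSPC1 library to the left of the shLacZ library. Points are summed FPKM and bars are 95% intervals within a library, and the dashed line marks 1 FPKM. ID1 is the highest gene in both libraries, and BMP2 and SMAD9 lie below 1 FPKM in both.

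The order of levels, in FPKM, was ID1, ID3, ID2, BAMBI, SMAD6, BMP4, ID4, BMP2 and SMAD9 in the shPSPC1 library. In the shLacZ library BAMBI stood above ID2, and the order was otherwise the same. Every pair of neighbours in either order had intervals of summed FPKM that did not overlap, but the order depended on the transcripts counted. With annotated transcripts alone ID2 stood above BAMBI in both libraries, at 20.6 and 11.4 FPKM in the shPSPC1 library. In the shLacZ library they were at 19.3 and 15.9 FPKM, with overlapping intervals. By estimated fragments, a measure described below, SMAD6 stood above ID2, at 32.2 and 28.7 FPKM (shPSPC1) and at 23.8 and 19.3 FPKM (shLacZ).

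Of the ligands, BMP4 was the more abundant one in both libraries. BMP4 (chr14:54416454-54423554, minus strand, in the coordinates of the deposited files) was at 4.97 ± 0.568 FPKM in the shPSPC1 library and at 7.16 ± 0.648 FPKM in the shLacZ library, a log2 ratio of -0.45 that was short of 1.5-fold. BMP4 makes a secreted ligand that acts in lung development, among other tissues. The listed split of the value among BMP4 transcripts differed between the libraries. It is an estimate, since the annotated transcripts share all exons but the first. The annotated NM_130850.2 was at 3.14 FPKM in the shPSPC1 library and at 2.54 FPKM in the shLacZ library. NM_001202.3, which has a longer first exon, was at 1.03 FPKM in the shPSPC1 library and at 3.45 FPKM in the shLacZ library. NM_130851.2, which starts at another first exon, was at 0.804 FPKM in the shPSPC1 library and listed at 0 in the shLacZ library, where the 0 can be a failed estimate. An assembled transcript of 3670 bases, at 1.17 FPKM, was present in the shLacZ library only, and its first exon of 2211 bases reached into what is an intron of the annotated transcripts.

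A second measure weighs every fragment alike, so that a long transcript counts for more than it does in a sum of FPKM. FPKM times effective length gives an estimated number of fragments, and the sum over a gene was then expressed again as FPKM of the gene's longest annotated transcript. By this measure BMP4 had 460 fragments in the shPSPC1 library and 800 fragments in the shLacZ library, a log2 ratio of -0.70. BMP4 was then 1 of 9 genes lower past 1.5-fold, where 4.68% of all genes were. Counting also every assembled transcript on the gene's strand or without a strand that lies between the ends of a gene, an alternative chosen after seeing the data, ID4 was again the 1 gene higher (4.04% of all genes) and BMP4 the 1 gene lower (4.49% of all genes) past 1.5-fold. With annotated transcripts alone the log2 ratio in FPKM was -0.23 and the intervals overlapped, so the size of the BMP4 difference depended on the transcripts counted while its sign did not.

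BMP2 (chr20:6748745-6760910, plus strand), which encodes a ligand close in sequence to BMP4, was at 0.392 ± 0.103 FPKM in the shPSPC1 library and at 0.297 ± 0.0922 FPKM in the shLacZ library. These levels correspond to 66.9 fragments in the shPSPC1 library and 49.9 fragments in the shLacZ library, the intervals overlapped, and no difference was detectable at this depth.

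SMAD9, the least abundant of the receptor-activated SMADs of this pathway in these cells, was near the lower limit of what the libraries can measure. SMAD9 (chr13:37418968-37494409, minus strand) was at 0.161 ± 0.0461 FPKM in the shPSPC1 library and at 0.125 ± 0.0493 FPKM in the shLacZ library, which is 49.0 fragments in the shPSPC1 library and 34.0 fragments in the shLacZ library. The intervals overlapped. The other receptor-activated SMADs of the pathway were more abundant and had summed levels that lay close together in the libraries. SMAD1 was at 4.56 FPKM in the shPSPC1 library and at 4.51 FPKM in the shLacZ library, and SMAD5 was at 9.94 FPKM in the shPSPC1 library and at 10.7 FPKM in the shLacZ library. With annotated transcripts alone both passed the rule, in opposite directions, with log2 ratios of -1.35 for SMAD1 and 2.02 for SMAD5.

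Among the target genes, the ID family split. ID1, ID2 and ID4 had higher values in the shPSPC1 library, ID2 and ID4 past the rule, and ID3 had a lower value. Their summed level was 325.5 FPKM in the shPSPC1 library and 259.3 FPKM in the shLacZ library, a ratio of 1.26. ID1 made up 64.3% of that sum in the shPSPC1 library and 57.4% in the shLacZ library, and ID3 made up 24.4% in the shPSPC1 library and 34.8% in the shLacZ library. ID2 held 10.5% of the sum in the shPSPC1 library and 7.46% in the shLacZ library, and ID4 held 0.822% in the shPSPC1 library and 0.349% in the shLacZ library. The ID genes therefore kept the order ID1, ID3, ID2, ID4 in both libraries.

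ID1 (chr20:30193086-30194318, plus strand) was at 209.3 ± 4.20 FPKM in the shPSPC1 library and at 148.8 ± 3.74 FPKM in the shLacZ library. The log2 ratio was 0.49, with bounds of 0.42 and 0.55 from the opposite ends of the intervals, and fell short of 1.5-fold, while by fragments, 9930 in the shPSPC1 library and 7177 in the shLacZ library, it was 0.45. ID1 is widely used as a readout of BMP receptor activity. It has a spliced and an unspliced RefSeq transcript, which differ by an intron of 239 bases. The spliced NM_002165.3 was at 209.3 FPKM in the shPSPC1 library and at 133.7 FPKM in the shLacZ library. The unspliced NM_181353.2 was listed at 0 in the shPSPC1 library and was at 15.1 FPKM (interval 13.9 to 16.4) in the shLacZ library, where it held 10.2% of the gene's FPKM. A value listed at 0 can be a failed estimate, and fragments within the intron are not given in the files, so the share of unspliced RNA in the shPSPC1 library cannot be read from it.

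The edges of that intron are shown because they are what separates the 2 ID1 transcripts. They were read from the GENCODE v29 transcripts (GRCh38), each with 12 exon bases and 12 intron bases, and capitals mark the first 2 and the last 2 bases of the intron.
ID1 donor edge: ctgacggccgagGTgagatccaga
ID1 acceptor edge: tcgttttcacAGgcggcatgcgtt

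ID2 (chr2:8822113-8824583, plus strand) rose to 34.1 ± 1.89 FPKM in the shPSPC1 library, against 19.3 ± 1.07 FPKM in the shLacZ library, and its log2 ratio was 0.79 (bounds 0.63 to 0.94). Like the other members of the family, ID2 encodes a protein that holds E proteins away from DNA. The annotated transcript NM_002166.4 alone was at 20.6 ± 1.22 FPKM in the shPSPC1 library and at 19.3 ± 1.07 FPKM in the shLacZ library, a log2 ratio of 0.09 with overlapping intervals. The rest of the shPSPC1 value was an assembled transcript of 4 exons and 883 bases (chr2:8821637-8823914) at 13.5 FPKM (interval 12.1 to 15.0), which was in the shPSPC1 library only. It begins upstream of the annotated start. Its introns of 329 and 778 bases are those of NM_002166.4, through which it was assigned to ID2. Its intron of 288 bases and its exon of 660 bases have the lengths found in a transcript of ID2 in GENCODE v29. The exon before the 288-base intron has 59 bases, against 75 in GENCODE, and the last exon has 100, against 769. The assembled transcript was listed without full read support. By estimated fragments, 1968 in the shPSPC1 library and 1308 in the shLacZ library, the ratio was 1.48 (log2 ratio 0.55), just short of the rule. The call for ID2 thus rested on a transcript assembled in 1 library.

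**Figure D2:**
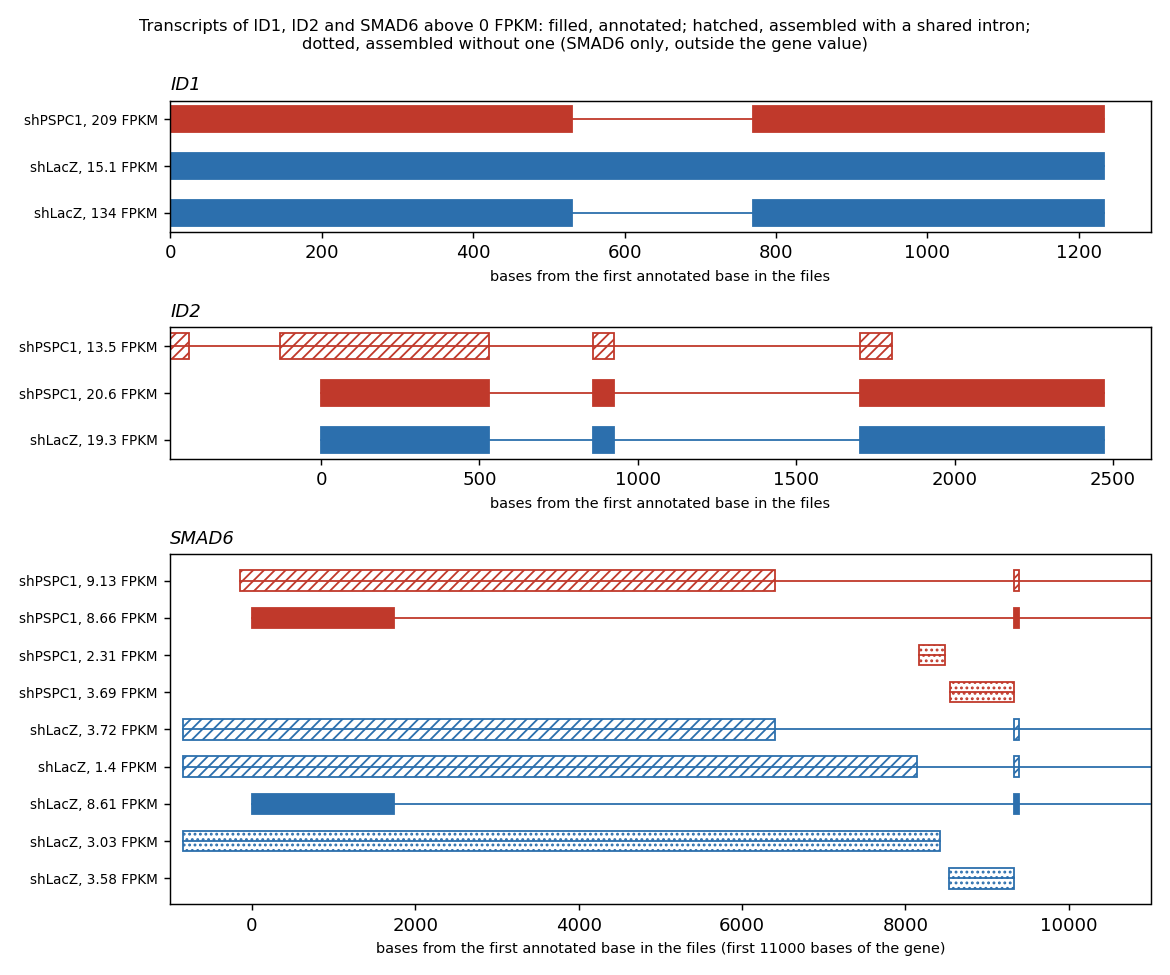
Transcripts of ID1, ID2 and SMAD6 above 0 FPKM, drawn to scale in bases from the first annotated base, with the shPSPC1 library (red) above the shLacZ library (blue). Filled boxes are exons of annotated transcripts, hatched boxes those of assembled transcripts with a shared intron, and dotted boxes single-exon assembled transcripts outside the gene value. The unspliced ID1 transcript at 15.1 FPKM is drawn for the shLacZ library only, and the ID2 transcript with an upstream exon, at 13.5 FPKM, for the shPSPC1 library only.

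ID3 (chr1:23884421-23886285, minus strand) was at 79.4 ± 2.27 FPKM in the shPSPC1 library and at 90.3 ± 2.44 FPKM in the shLacZ library. Its log2 ratio was -0.18, with bounds of -0.26 and -0.10, well short of 1.5-fold. The gene has 1 transcript in both libraries, with 4875 fragments in the shPSPC1 library and 5473 fragments in the shLacZ library, and no assembled one.

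ID4 (chr6:19837601-19842431, plus strand) rose to 2.67 ± 0.225 FPKM in the shPSPC1 library, against 0.905 ± 0.132 FPKM in the shLacZ library. ID4 is the least abundant member of the family in both libraries. Its log2 ratio was 0.95 (bounds 0.76 to 1.14), and the ratio of the FPKM values with nothing added was 2.95. The gene has 1 annotated transcript and no assembled one, with 567 fragments in the shPSPC1 library and 189 fragments in the shLacZ library, so the ratio was the same by both measures. By estimated fragments ID4 was the 1 gene of the 9 higher past 1.5-fold, where 3.36% of all genes were.

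**Figure D3:**
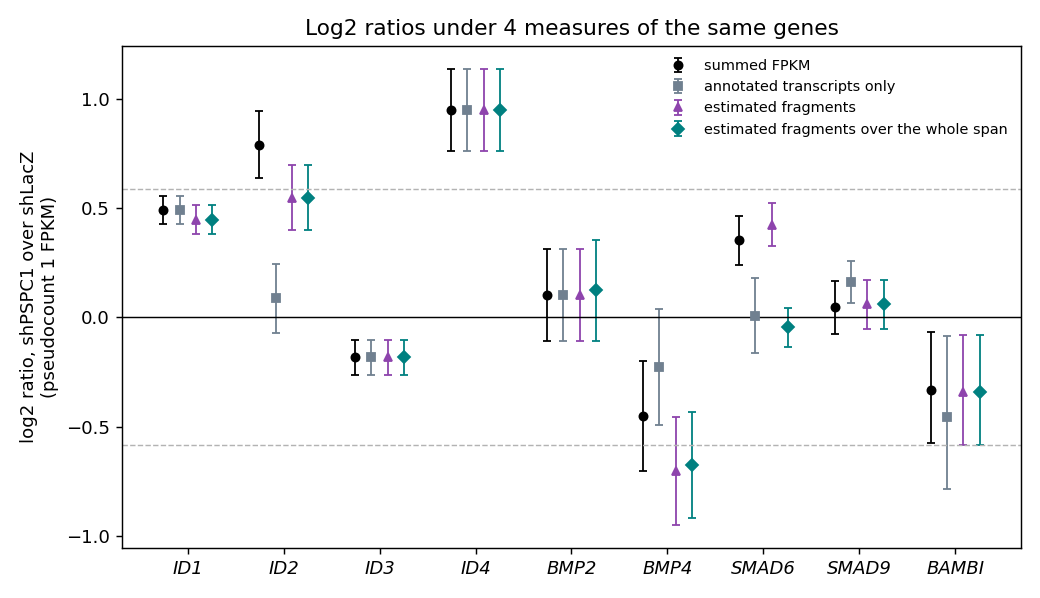
Log2 ratio of shPSPC1 over shLacZ for each gene with 1 FPKM added, by summed FPKM, by annotated transcripts only, by estimated fragments and by estimated fragments over the whole span of the gene. Bars run between the bounds from opposite ends of the 95% intervals, and dashed lines mark 1.5-fold. ID3 and ID4 are at the same ratio by all 4 measures, at -0.18 and 0.95, while ID2, BMP4 and SMAD6 differ between them.

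Of the feedback genes, SMAD6 had a higher and BAMBI a lower value in the shPSPC1 library, both short of 1.5-fold. SMAD6 (chr15:66994674-67074338, plus strand), which encodes an inhibitory SMAD that competes with the receptor-activated ones, was at 17.8 ± 0.657 FPKM in the shPSPC1 library and at 13.7 ± 0.627 FPKM in the shLacZ library. The log2 ratio was 0.35 in FPKM and 0.42 by fragments, with 5240 fragments in the shPSPC1 library and 3810 fragments in the shLacZ library. The annotated NM_005585.4 showed no such difference, at 8.66 ± 0.576 FPKM in the shPSPC1 library and 8.61 ± 0.569 FPKM in the shLacZ library. The rest came from assembled transcripts with a long first exon, of 7636 bases at 9.13 FPKM in the shPSPC1 library, and of 8330 bases at 3.72 FPKM and 10194 bases at 1.40 FPKM in the shLacZ library. The shLacZ library also held an unspliced transcript of 9270 bases on the same strand (chr15:66993828-67003097) at 3.03 FPKM, which shares no intron with SMAD6 and is outside its value. Counting all transcripts over the whole span of the gene gave 5390 fragments in the shPSPC1 library and 5487 fragments in the shLacZ library. The log2 ratio was then -0.05 with overlapping intervals, so the direction for SMAD6 turned with the transcripts counted.

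BAMBI (chr10:28966424-28971868, plus strand), the decoy receptor, was at 27.6 ± 1.41 FPKM in the shPSPC1 library and at 34.9 ± 4.49 FPKM in the shLacZ library. The log2 ratio was -0.33, with bounds of -0.57 and -0.07, and by fragments, 2206 in the shPSPC1 library and 2781 in the shLacZ library, it was -0.34. Both libraries held the annotated transcript and an assembled one of 1453 bases that ends earlier. The annotated one was at 11.4 FPKM in the shPSPC1 library and at 15.9 FPKM in the shLacZ library, and the assembled one at 16.2 FPKM in the shPSPC1 library and at 19.0 FPKM in the shLacZ library.

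**Figure D4:**
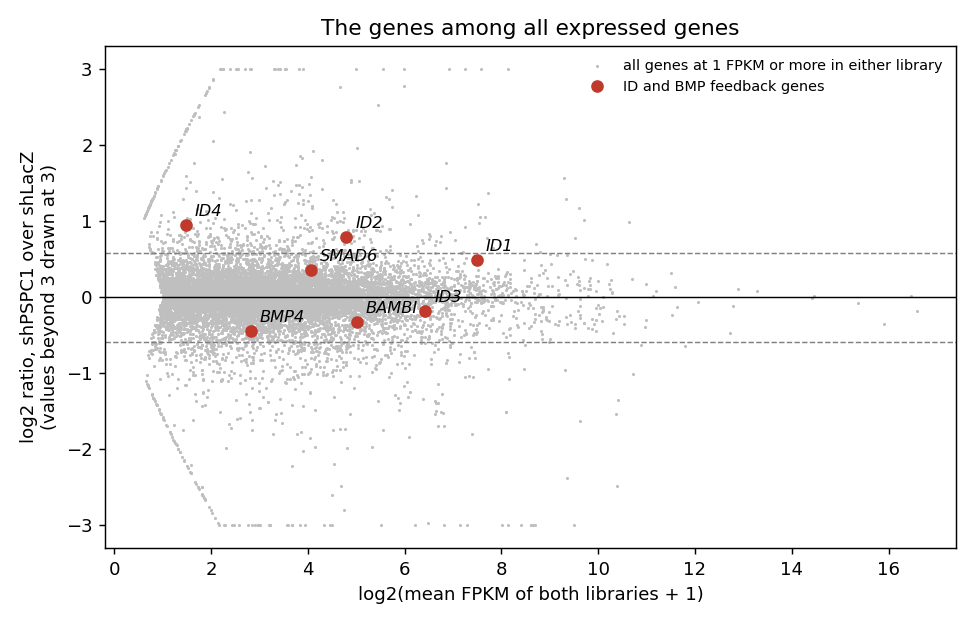
Log2 ratio of shPSPC1 over shLacZ against log2 of the mean FPKM of both libraries plus 1, for the 11475 genes that reached 1 FPKM in either library (grey) and the 7 genes described here that did so (red). Dashed lines mark 1.5-fold and ratios beyond 3 are drawn at 3. ID2, at 0.79, and ID4, at 0.95, lie above the upper dashed line, and none of the other genes shown in red lies beyond either line.

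Another 76 genes of the BMP pathway had values in both libraries, on lists of ligands, receptors, SMADs, inhibitors, targets and E proteins, and 38 of them reached 1 FPKM. By the rule, 4 of the 38 were higher in the shPSPC1 library and 4 were lower, beside the 4.36% and 5.46% of all genes given above. Past 2-fold, 0 were higher and 2 were lower, where 1.67% and 1.98% of all genes were. The 2 were GREM1 and BMPER, and by estimated fragments BMPER was short of 2-fold, at a log2 ratio of -0.90. The median log2 ratio of the 38 genes was -0.05.

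Of 14 other BMP-group ligands only BMP8B reached 1 FPKM, at 1.65 FPKM in the shPSPC1 library and 1.61 FPKM in the shLacZ library. By fragments its log2 ratio was 0.32. With annotated transcripts alone it was at 0.976 FPKM in the shPSPC1 library and listed at 0 in the shLacZ library. No receptor or co-receptor passed the rule, of 9 at 1 FPKM or more, with a median log2 ratio of 0.03. The type I receptor BMPR1A was at 7.83 FPKM in the shPSPC1 library and at 9.92 FPKM in the shLacZ library, BMPR1B was at 7.77 FPKM in the shPSPC1 library and at 7.60 FPKM in the shLacZ library, and the type II receptor BMPR2 was at 1.56 FPKM in the shPSPC1 library and at 2.43 FPKM in the shLacZ library. SMAD4, the partner of all receptor-activated SMADs, was at 15.0 FPKM in the shPSPC1 library and at 13.3 FPKM in the shLacZ library. The other 4 of the 13 receptors and co-receptors, ACVRL1, ENG, RGMA and HJV, were below 1 FPKM in both libraries, and HJV was listed at 0 in both. With annotated transcripts alone the sign for BMPR1A turned, to a log2 ratio of 0.09.

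Secreted antagonists, which bind BMPs or related ligands outside the cell, held 5 of the 8 genes among these 76 that passed the rule, 3 lower and 2 higher of 8 at 1 FPKM or more, with a median log2 ratio of -0.46. GREM1 (gremlin 1), which binds BMP2 and BMP4, fell to 2.20 ± 0.197 FPKM in the shPSPC1 library, against 7.20 ± 0.359 FPKM in the shLacZ library, a log2 ratio of -1.36. BMPER, a chordin-like BMP-binding protein, fell to 0.872 ± 0.128 FPKM in the shPSPC1 library, against 3.52 ± 0.351 FPKM in the shLacZ library, a log2 ratio of -1.27 in FPKM and -0.90 by fragments. With annotated transcripts alone BMPER was at 0.619 FPKM in the shPSPC1 library and at 1.33 FPKM in the shLacZ library, a log2 ratio of -0.52 that was short of the rule. GREM1 has 1 transcript in both libraries, and its ratio did not depend on the transcripts counted. FSTL1, a follistatin-like secreted protein, fell to 31.2 ± 0.771 FPKM in the shPSPC1 library, against 57.0 ± 1.38 FPKM in the shLacZ library, a log2 ratio of -0.85 in FPKM and -0.76 by fragments. Its annotated transcript alone turned the direction, at 31.2 FPKM in the shPSPC1 library and 16.8 FPKM in the shLacZ library (log2 ratio 0.86), so the fall rests on 2 transcripts assembled in the shLacZ library only. FST (follistatin), which binds activins and some BMPs, went the other way and rose to 2.63 ± 0.489 FPKM in the shPSPC1 library, against 0.845 ± 0.238 FPKM in the shLacZ library, a log2 ratio of 0.98. The whole shPSPC1 value of FST came from 4 assembled transcripts, and its annotated transcripts were listed at 0 in the shPSPC1 library and summed to 0.290 FPKM in the shLacZ library, so the call was lost, and the direction turned, with annotated transcripts alone. NBL1, a member of the gremlin family, rose to 12.3 ± 0.681 FPKM in the shPSPC1 library, against 7.00 ± 0.634 FPKM in the shLacZ library. NBL1 shares introns with the read-through gene MICOS10-NBL1, which was listed at 0 in the shPSPC1 library and was at 8.79 FPKM in the shLacZ library, and the sum of both was 12.3 FPKM in the shPSPC1 library and 15.8 FPKM in the shLacZ library, so the NBL1 call is uncertain.

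Of the 9 intracellular inhibitors and ubiquitin ligases, all at 1 FPKM or more, 6 had log2 ratios above 0 and 3 below. In FPKM 2 were higher past the rule, and neither passed it by fragments. SKIL, a co-repressor of SMADs, was at 28.6 FPKM in the shPSPC1 library and at 15.5 FPKM in the shLacZ library (log2 ratio 0.84 in FPKM, 0.06 by fragments and -0.50 with annotated transcripts alone). PPM1A, a phosphatase for SMADs, was at 15.0 FPKM in the shPSPC1 library and at 8.50 FPKM in the shLacZ library (log2 ratio 0.75 in FPKM, -0.18 by fragments and -0.62 with annotated transcripts alone, where it was lower past the rule). SMAD7, the other inhibitory SMAD, was at 6.99 ± 0.594 FPKM in the shPSPC1 library and at 8.93 ± 0.555 FPKM in the shLacZ library, a log2 ratio of -0.31 that reached -0.81 by fragments, where it was lower past 1.5-fold. With annotated transcripts alone SMAD7 was at 5.61 FPKM in the shPSPC1 library and at 2.70 FPKM in the shLacZ library, a log2 ratio of 0.84 that was higher past the rule. The direction for SMAD7, like that for SMAD6, turned with the transcripts counted. By fragments, 2 of the 38 other pathway genes were higher and 5 were lower past 1.5-fold, where 3.36% and 4.68% of all genes were.

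**Figure D5:**
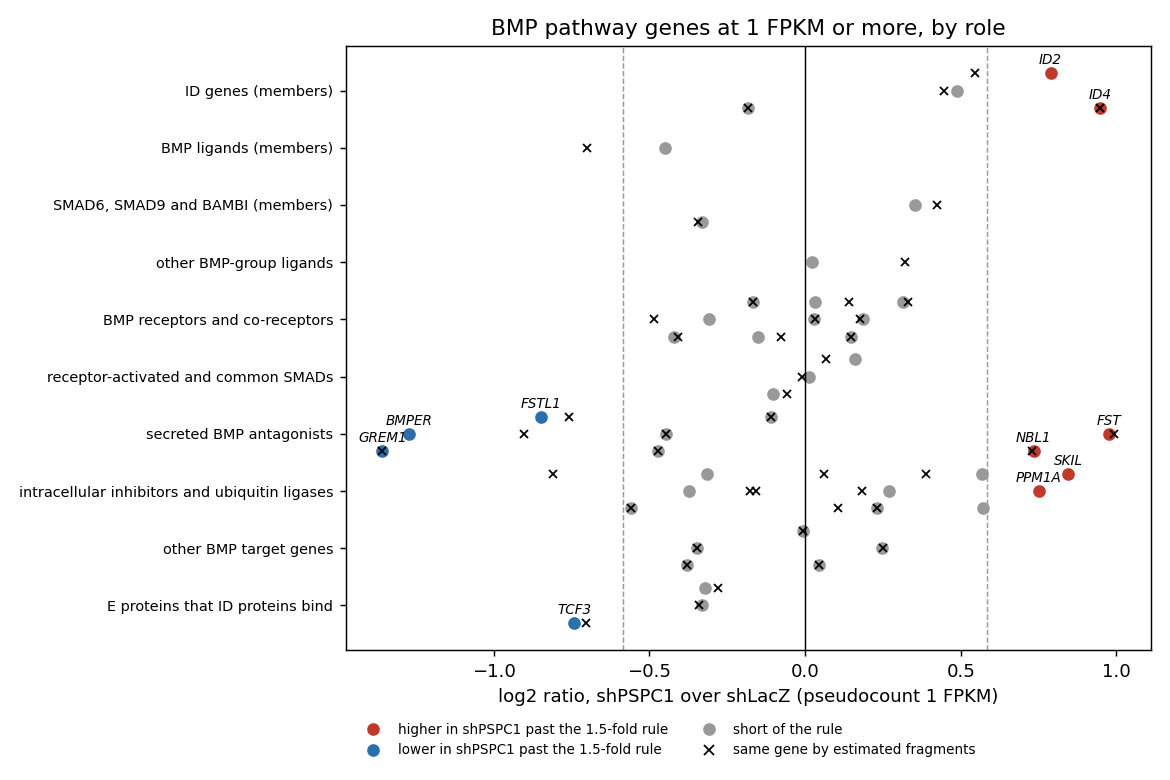
Log2 ratio of shPSPC1 over shLacZ, with 1 FPKM added, for each gene of the BMP pathway at 1 FPKM or more in a library, by role. Circles are summed FPKM (red higher, blue lower past the rule, grey short of it), crosses the same gene by estimated fragments, and dashed lines 1.5-fold. Among the secreted antagonists 3 genes are lower and 2 higher past the rule, and the crosses for SKIL, at 0.06, and PPM1A, at -0.18, lie short of 1.5-fold.

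Of 5 other BMP targets at 1 FPKM or more, 0 passed the rule in either direction, with a median log2 ratio of -0.01. HES1, a transcriptional repressor, was at 6.89 FPKM in the shPSPC1 library and at 6.64 FPKM in the shLacZ library, and the homeobox gene MSX1 was at 2.80 FPKM in the shPSPC1 library and at 2.82 FPKM in the shLacZ library. MSX2, its relative, was at 3.49 FPKM in the shPSPC1 library and at 4.70 FPKM in the shLacZ library. The other targets measured here thus showed neither the ratio of ID2 nor that of ID4.

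The E proteins, the partners of the ID proteins, had log2 ratios below 0 in 3 of 3 cases, with a median of -0.33, and 1 passed the rule. Of all 11475 genes at 1 FPKM or more, 5638 had a log2 ratio below 0. TCF3, which encodes E12 and E47, fell to 5.40 ± 0.369 FPKM in the shPSPC1 library, against 9.69 ± 0.489 FPKM in the shLacZ library, a log2 ratio of -0.74 in FPKM, -0.70 by fragments and -0.95 with annotated transcripts alone. TCF12 was at 12.5 ± 0.538 FPKM in the shPSPC1 library and at 16.0 ± 0.501 FPKM in the shLacZ library, and TCF4 was at 2.18 ± 0.166 FPKM in the shPSPC1 library and at 2.98 ± 0.224 FPKM in the shLacZ library. By fragments over the whole span, the log2 ratio of TCF4 was -0.12 with overlapping intervals. The summed ID level was 325.5 FPKM in the shPSPC1 library and 259.3 FPKM in the shLacZ library, most of it from ID1, which was short of the rule. ID3, like each E protein gene, had its lower value in the shPSPC1 library. A link between ID and E protein levels was not tested. Protein was not measured.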

How the data were processed

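RNA of 1 shPSPC1 and 1 shLacZ library of A549 cells was sequenced, with groups taken from the source labels. Cufflinks 2.1.1, TopHat2 2.0.7 and CASAVA 1.8.2 are named in the submitters' processing notes. The genome build, and whether poly(A) RNA was selected or the strand kept, are not given in the sources used here. FPKM and 95% intervals per transcript were computed by the authors and deposited as attributes of each transcript, another form of value than a count table. Genes were named with a RefSeq table (GRCh38.p14), and coordinates of transcripts are the deposited ones. Transcript FPKM were summed per gene, half-widths were combined as the root of their summed squares, and log2 ratios used a pseudocount of 1 FPKM, which understates changes of low genes. Depth was recovered from the intervals of transcripts alone at their locus, whose fragment numbers came out whole within 0.02 for 90.7% of 34803 (shPSPC1) and 91.3% of 28013 (shLacZ). All 9 members, every pathway gene past the rule, and member transcripts holding at least 0.05 of a gene's FPKM could be named. Members, lists and most settings were chosen with earlier results of these data known. The calculation was tested on simulated data, using Python 3.11.15 and NumPy 2.4.6. Alternatives changed the pseudocount, the minimum, the transcripts counted, the scaling and the measure.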

Additional observations from a re-analysis of the deposited data

Results flagged for a closer look

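A single-exon transcript of 821 bases without a strand was assembled in the shPSPC1 library just beyond the 3' end of SMAD9 (chr13:37417554-37418374 in the deposited coordinates), 594 bases from the gene. It was at 0.427 FPKM (interval 0.213 to 0.640) in the shPSPC1 library, and no transcript was assembled there in the shLacZ library. It was flagged because it lies outside every gene value used here, and the shLacZ library has no value there to set beside it. Pieces near ID1 and ID2, given under the other observations, were likewise outside gene values and in 1 library only. In the shLacZ library an assembled SMAD9 transcript reached base 37418595, beyond the annotated end at 37418968. SMAD9 itself was at 0.161 FPKM in the shPSPC1 library and at 0.125 FPKM in the shLacZ library. Whether the piece belongs to SMAD9 was not tested.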

How the results depend on the processing

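Of the recomputed values, 148 stayed close to the value reported (a gene's ratio within its bounds, a count within 1.5 times) and 28 moved further. The 148 include gene ratios under a changed minimum, which cannot move them. The signs of ID1, ID2, ID3, ID4, BMP2, BMP4, SMAD9 and BAMBI were the same under all 11 alternatives, while SMAD6 ranged between -0.05 (whole span) and 0.45. Changes of the minimum or the pseudocount cannot turn a sign. For ID3 and ID4, with 1 transcript each, the transcripts counted and the measure left the ratio unchanged as well. The number of the 9 genes higher past 1.5-fold was 2, and it was 1 with a pseudocount of 5 (ID2), a minimum of 5 FPKM (ID2), annotated transcripts only (ID4), estimated fragments (ID4) and estimated fragments over the whole span (ID4). ID1 passed 1.5-fold in place of ID2, at 0.64, with the most abundant transcript only. It did so beside ID2 and ID4, at 0.59, after rescaling to an equal sum outside the mitochondrial genome. Of all genes, 6.23% were higher past 1.5-fold with the most abundant transcript only and 5.79% after that rescaling. The share was 1.94% with a pseudocount of 5, 4.14% with a minimum of 5 FPKM and 9.45% with annotated transcripts only. It was 3.36% by estimated fragments and 4.04% over the whole span. The number of the 9 genes lower was 0, and 1 (BMP4) by estimated fragments (4.68% of all genes) and over the whole span (4.49% of all genes). Past 2-fold 0 of the 9 were higher. The number was 1 (ID4) with a pseudocount of 0.1 (2.52% of all genes) and after rescaling to an equal sum outside the mitochondrial genome (2% of all genes). Of the other pathway genes 4 were higher, but 1 (SKIL) with a pseudocount of 5 and 2 (FST, NBL1) by estimated fragments and over the whole span, and 4 were lower, but 2 (GREM1, FSTL1) with a pseudocount of 5. Their median of -0.05 was -0.17 with annotated transcripts only, where the genes called also differed, with SMAD5, FSTL1, NBL1 and SMAD7 higher and SMAD1, GREM1, SMURF2, PPM1A, TCF3 and TCF12 lower. The whole-span measure was chosen after seeing the data. A cause was not tested.

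Over all genes, 500 were higher and 627 lower past 1.5-fold, against 1006 and 1087 with annotated transcripts only, and 223 and 290 with a pseudocount of 5. Past 2-fold, 192 were higher and 227 lower, against 516 and 517 with annotated transcripts only, 289 and 339 with a pseudocount of 0.1, and 74 and 88 with a pseudocount of 5. Rescaling to an equal sum shifted all log2 ratios by about 0.10 and gave 667 higher and 502 lower past 1.5-fold. Depth limits BMP2 and SMAD9, each under 100 fragments. No paired analysis was possible because each group holds 1 library.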

Other observations

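Within or near the genes described above, single-exon or spliced pieces outside any gene value were assembled. Over the last exon of BMP2, a single-exon transcript on its strand, outside the gene value for want of a shared intron, was at 0.163 FPKM (interval 0.0694 to 0.256) in the shPSPC1 library and at 0.127 FPKM (interval 0.0390 to 0.214) in the shLacZ library, and these intervals overlap. Within the SMAD6 region, strandless pieces of 777 bases in the shPSPC1 library and 793 bases in the shLacZ library lay before the same exon, at 3.69 FPKM (interval 3.04 to 4.34) in the shPSPC1 library and at 3.58 FPKM (interval 2.94 to 4.21) in the shLacZ library. Upstream of ID2, on the minus strand, a spliced transcript with 2 exons and 1582 bases was at 0.480 FPKM (interval 0.304 to 0.655) in the shLacZ library and was not assembled in the shPSPC1 library, and the annotated transcript there was listed at 0 in both libraries. A strandless piece of 565 bases before ID1 was at 1.19 FPKM (interval 0.732 to 1.65) in the shLacZ library and was not assembled in the shPSPC1 library.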
